A study of Mus musculus with 2 samples.

Results

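Short chromatin loops, joining places 5 to 20 kb apart, made up 3047 of the 7732 loops listed for the protein BRD2 in mouse embryonic stem cells. A loop counted as short when its outer edges lay at most 20000 bp apart, and no other value was used to choose it. The data come from ChIA-PET, an assay that pulls down chromatin with an antibody to BRD2, ligates DNA ends that are held together, and reads the joined places by sequencing. The 2 samples are replicates of untreated wild-type cells of the line V6.5, grown with irradiated mouse embryonic fibroblasts in serum and LIF, so the study has 1 group. The authors deposited 1 list for the merged replicates, with a position on mm9 and a score for each loop. The spread between replicates is therefore unknown, and an interval given below covers counting error only.

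BRD2 belongs to the BET proteins, whose paired bromodomains bind acetylated lysines on histone tails. BET proteins sit at active promoters and enhancers, where they help to recruit the machinery of transcription by RNA polymerase II. Contacts over short distances can join the promoter of a gene to enhancers, to other promoters or to places within the gene body, and in embryonic stem cells enhancers near key genes often lie in clusters. Which genes lie at the anchors was not analysed here, since the gene table used here is on another genome build. An anchor is the place at which a loop ends, and partners of an anchor are the other anchors to which loops of up to 1 Mb join it.

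Short loops carried more than their share of the signal. They were 39.4% of the listed loops (exact 95% interval 38.32 to 40.51%) and held 46.0% of the summed score. The score is the authors' own value for each loop. It is a whole multiple of 1000 with a lowest value of 2000, and no header states its unit. The mean score was 3592 ± 2803 (SD over 3047 loops) in short loops, against 2885 ± 1905 over the 3232 loops of 20 to 100 kb and 2440 ± 1159 over the 1453 loops longer than 100 kb. The SDs were larger than the differences between these means, so single loops of the classes overlapped widely.

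The most frequent score was also the lowest. Of the short loops, 1372, or 45.03%, had a score of 2000, 706 had 3000, 348 had 4000 and 520 had 5000 to 9000. A score of 10000 to 19000 was held by 88 and one of 20000 or more by 13. A score above this minimum, that is of 3000 or more, was held by 55.0% of short loops (53.2 to 56.7%), against 38.3% of loops of 20 to 100 kb (36.65 to 40.04%). This is a difference of 16.6 percentage points, with a Newcombe 95% interval of 14.2 to 19.1. Against all 4685 longer loops, of which 33.8% reached 3000, the difference was 21.1 points (18.9 to 23.4). No p-value is given, because loops of 1 merged list share anchors and are not replicates. At 5000 or more the share was 20.4% in short loops and 10.2% in loops of 20 to 100 kb, and at 10000 or more it was 3.31% in short loops and 1.33% in loops of 20 to 100 kb.

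Read from the score, the weight of short loops grew toward the top of the list. They were 30.7% of all loops at a score of 2000 (29.3 to 32.1%), 44.9% at 3000, 51.0% at 4000 and 61.0% at 5000 to 9000 (57.7 to 64.3%). Of the 153 loops with a score of 10000 or more, 101, or 66.0%, were short (57.9 to 73.5%), and these 101 loops held 13.3% of the summed score of short loops. Of the 19 loops at 20000 or more, 13 were short.

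**Figure D1:**
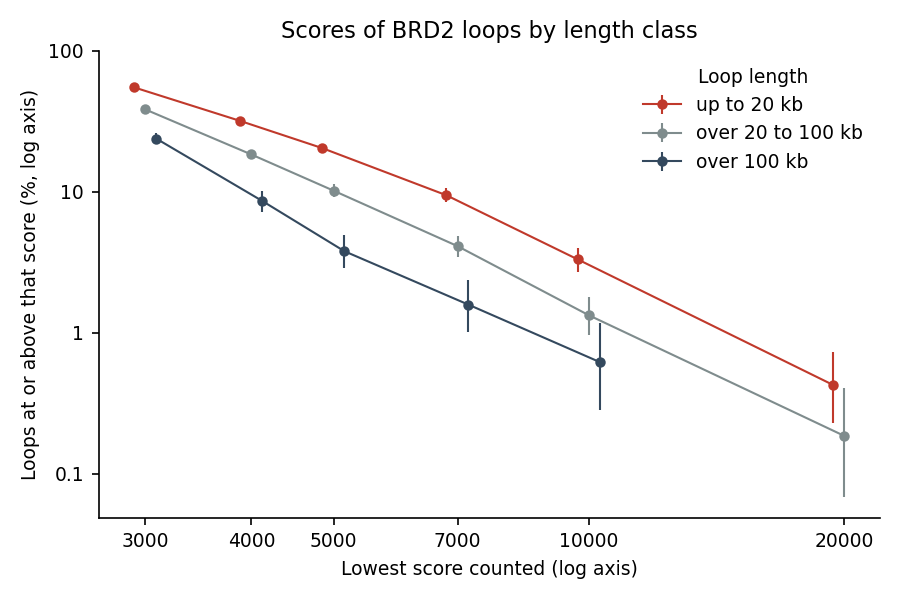
Share of loops (y axis, percent, log) at or above each score (x axis, log) for loops up to 20 kb, of over 20 to 100 kb and over 100 kb, with exact 95% intervals as bars. Short loops lie highest at every score plotted, from 55.0% at 3000 or more to 0.427% at 20000 or more, and no loop over 100 kb reached 20000.

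Within the class, loop number fell steeply with length while score hardly changed. The median length was 10.7 kb, with quartiles of 7.96 and 14.6 kb. Loops of 5 to 10 kb numbered 1351, or 44.3% of the class, those of 10 to 15 kb 1004 and those of 15 to 20 kb 692. Counted by 1 kb of length, the number was highest at 6 to 7 kb and at 7 to 8 kb, with 334 loops each, and fell to 114 at 19 to 20 kb. The bin from 5 to 6 kb held only 111. This low bin lies at the lower limit of the list. The shortest loops were those from 143092325 to 143097581 on chromosome 6 (5256 bp), from 81620220 to 81625526 on chromosome 12 (5306 bp) and from 10854289 to 10859643 on chromosome 4 (5354 bp), all with a score of 2000. In the 510 short loops for which both inner edges could be read, the inner edges were never closer than 5008 bp. In the others at least 1 inner edge is not listed.

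The share of loops with a score of 3000 or more was 57.7% at 5 to 10 kb (55.0 to 60.4%), 54.4% at 10 to 15 kb (51.2 to 57.5%) and 50.4% at 15 to 20 kb (46.6 to 54.2%). The mean score did not follow this order, with 3621 ± 2527, 3567 ± 2629 and 3572 ± 3480 (SD over the loops of each bin). Across the 3047 short loops, score and length had a Spearman's rho of -0.06 and, as log10 values, a Pearson's r of -0.05. These coefficients describe loops that share a library and often an anchor. The lowest score was 2000 in each 1 kb bin. The strongest loop of a bin lay between 11000, at 19 to 20 kb, and 52000, at 18 to 19 kb, so high scores were not confined to the shortest loops.

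The limit of 20 kb cuts through a continuous distribution of lengths. The 3 loops just inside it had lengths of 19957, 19983 and 19994 bp with scores of 3000, 2000 and 10000. The 3 just outside had lengths of 20004, 20007 and 20016 bp, all with a score of 2000. The 536 loops of 16 to 20 kb had a share of 51.1% at a score of 3000 or more (46.8 to 55.4%), against 42.0% in the 402 loops of 20 to 24 kb (37.2 to 47.0%). The mean score was 3591 in the former and 3017 in the latter.

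**Figure D2:**
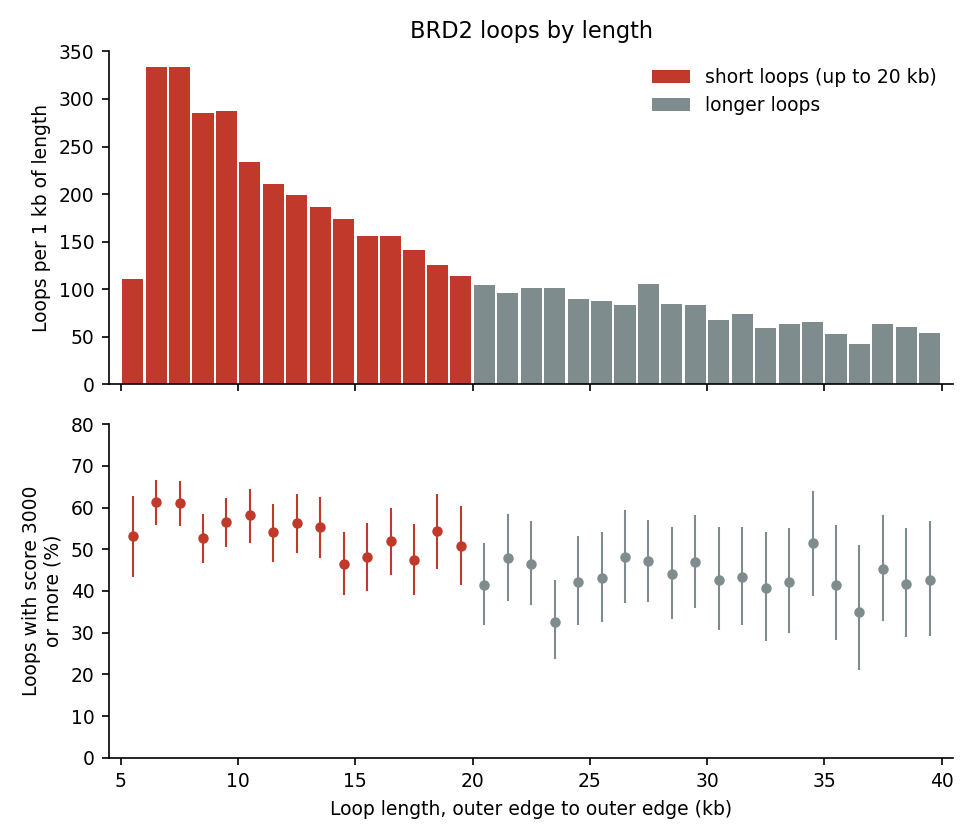
Number of loops per 1 kb of length (top) and share of them with a score of 3000 or more in percent with exact 95% intervals (bottom), against loop length in kb, for short loops (red) and longer loops (grey). The number peaks at 334 loops per bin between 6 and 8 kb, while the share moves between 46.6% and 61.4% over the bins of short loops.

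The 10 strongest short loops lay on 6 chromosomes and varied widely in how their anchors were connected. The loop from 77169056 to 77187248 on chromosome 15 (18.2 kb, score 52000) joined anchors with 5 partners each, and the strongest of the 8 other loops at these anchors had a score of 15000. The loop from 88383662 to 88400259 on chromosome 1 (16.6 kb, score 42000) joined anchors with 9 partners each, and its other 16 loops reached 26000. On chromosome 2, the loop from 32018323 to 32030144 (11.8 kb, score 30000) had anchors with 3 and 4 partners, and its other loops reached only 6000. The loop from 118885698 to 118896164 on chromosome 5 (10.5 kb, score 27000) had anchors with 9 and 6 partners. These 4 loops stood in regions with several other loops, each of them weaker.

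At the other end of connectivity stood the loop from 87500488 to 87514967 on chromosome 8 (14.5 kb, score 22000). Its left anchor had no partner besides this loop, and its other 2 loops, both at the right anchor, reached 4000. The left anchor of the loop from 154246989 to 154252690 on chromosome 2 (5.70 kb, score 21000) likewise had 1 partner, whereas its right anchor had 6. A high score was thus listed also for anchors with few partners. The loop from 81344621 to 81354024 on chromosome 15 (9.40 kb, score 25000) had anchors with 4 and 2 partners, and its other loops reached 5000. Also among the 10 were a loop from 25684454 to 25692395 on chromosome 15 (7.94 kb, score 22000), one from 165795092 to 165813007 on chromosome 2 (17.9 kb, score 21000) and one from 66825121 to 66831694 on chromosome 11 (6.57 kb, score 20000, a score that 4 short loops share). In 10 of 10 the named loop scored above each other loop of its anchors, which the choice by score favours. Of the 10, 9 lay inside a longer loop, and in 7 another anchor was joined to both ends.

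Anchors with a short loop had more partners than those with only longer loops, a contrast that the making of the groups favours. Short loops used 5184 of the 9234 anchors of loops up to 1 Mb, or 56.1%. Of these 5184, 2472, or 47.7% (46.3 to 49.1%), had 2 or more partners, against 24.1% of the 4050 anchors that carried only longer loops (22.8 to 25.5%). The difference was 23.6 points (Newcombe interval 21.7 to 25.4). The mean was 1.86 ± 1.21 partners in anchors with a short loop and 1.34 ± 0.73 in the others (SD over anchors). With loops of a score of 3000 or more alone, which leaves fewer loops to share anchors, the share was 30.5% in anchors with a short loop and 16.2% in the others. An anchor with many loops has more chances to hold a short one, so the choice of anchors by a short loop favours high partner numbers. Of the 2472, 2097 carried both a short and a longer loop. These have 2 or more partners by definition and cannot fall among the anchors with only longer loops. The groups at a minimum score were made in the same way. Both contrasts thus describe the list only and do not show that short loops go with more partners.

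Most anchors took part in 1 short loop. One short partner was listed for 4366 anchors, or 84.2%, 2 for 726 and 3 for 92, and no anchor had more than 3. The known edges of different anchors were never closer than 5006 bp, which limits how many partners fit within 20 kb on each side. Short loops went out to both sides from 653 anchors, or 12.6%. A longer loop was also carried by 2097 anchors, or 40.45%, and the other 3087 had short loops only. Where both edges of an anchor were known, its median width was 340.5 bp in the 1618 anchors with a short loop (quartiles 206 and 577 bp) and 406.5 bp in the 466 with only longer loops (231.5 and 660.0 bp). These ranges overlap for most of their extent.

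The 5 anchors with the most short partners and the highest summed score lay at 3 places. The anchor at 88383662 to 88384782 on chromosome 1 had short loops with scores of 42000, 19000 and 10000, and 6 loops of over 20 kb up to 1 Mb, whose scores were 2000 to 5000. On chromosome 15, the anchors at 25684454 to 25684652, at 25692282 to 25692395 and at 25699452 to 25699738 had 3 short partners each. Together with the anchor ending at 25710763 they formed a complete set. The first was joined to the second with a score of 22000, to the anchor at 25699452 with 15000 and to the last with 2000. The second was joined to the next with a score of 17000 and to the last with 2000, and the last pair had a score of 8000. Among these 6 loops, 5 were short, and the remaining one, of 26.3 kb, had a score of 2000. The anchor at 118896007 to 118896164 on chromosome 5 had a short loop of score 27000 to its left and short loops of scores 3000 and 2000 to its right.

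Better connected anchors carried higher scores, in short loops as in longer ones. Among short loops whose anchors had no other loop, 44.6% scored at least 3000 (41.1 to 48.3%). The share was 51.1% where the better connected anchor had 2 partners, 60.9% with 3, 64.7% with 4 and 82.6% with 7 or more (71.6 to 90.7%, 69 loops). In loops of 20 to 100 kb the shares were 28.4%, 31.9%, 35.6%, 43.5% and 64.2% for the same numbers of partners. At each number of partners from 1 to 6, and at 7 or more, the share was higher in short loops than in loops of 20 to 100 kb. The intervals of both classes did not overlap from 1 to 4 partners. With 5 partners they did, at 62.2% (54.5 to 69.5%) in short loops and 49.8% (44.0 to 55.6%) in loops of 20 to 100 kb, as they also did with 6.

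The same order held within anchors. At the 2097 anchors that carried both kinds of loop, the mean score of the short loops was compared with that of the loops over 20 kb and up to 1 Mb. Short loops had the higher mean at 1146 anchors, or 54.6% (52.5 to 56.8%), both means were equal at 518, and short loops had the lower mean at 433, or 20.6% (18.9 to 22.4%). Averaged over these anchors, the mean score was 3997 ± 3035 for short loops and 2773 ± 1319 for longer loops (SD over anchors). The difference at an anchor, short minus longer, was 1224 ± 3076 on average with a median of 500, so that it was much smaller than the spread between anchors. The 673 short loops with a longer loop at both ends are counted at both anchors, so these anchors are not independent.

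**Figure D3:**
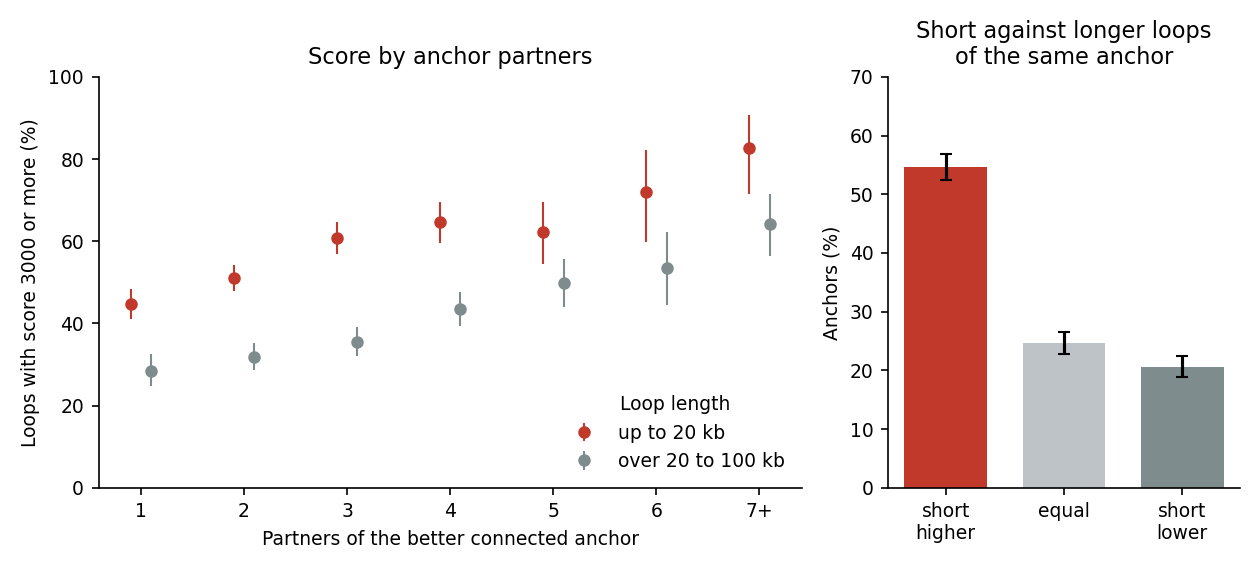
Left, share of loops with a score of 3000 or more in percent against the number of partners of the better connected anchor, for loops up to 20 kb (red) and of over 20 to 100 kb (grey), with exact 95% intervals. Right, percent of the 2097 anchors with both kinds of loop at which the mean score of short loops was higher than, equal to or lower than that of loops over 20 kb, with short loops higher at 54.6% and lower at 20.6%.

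When listed anchors lay close together, they were mostly joined. Of the 4297 pairs of anchors 5 to 20 kb apart, 3047, or 70.9%, were joined by a loop. Where no other listed anchor lay between them, 75.5% of 3805 pairs were joined (74.1 to 76.8%), and where an anchor lay between them, 35.8% of 492 pairs (31.5 to 40.2%). Among neighbouring anchors the share was 81.8% at 5 to 10 kb, 73.9% at 10 to 15 kb and 65.5% at 15 to 20 kb, and it went on to 55.8% at 20 to 30 kb and 22.1% at 100 to 200 kb. No step was seen at 20 kb. An anchor is known only through a loop it takes part in, so these shares describe listed anchors and not BRD2 sites in general.

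**Figure D4:**
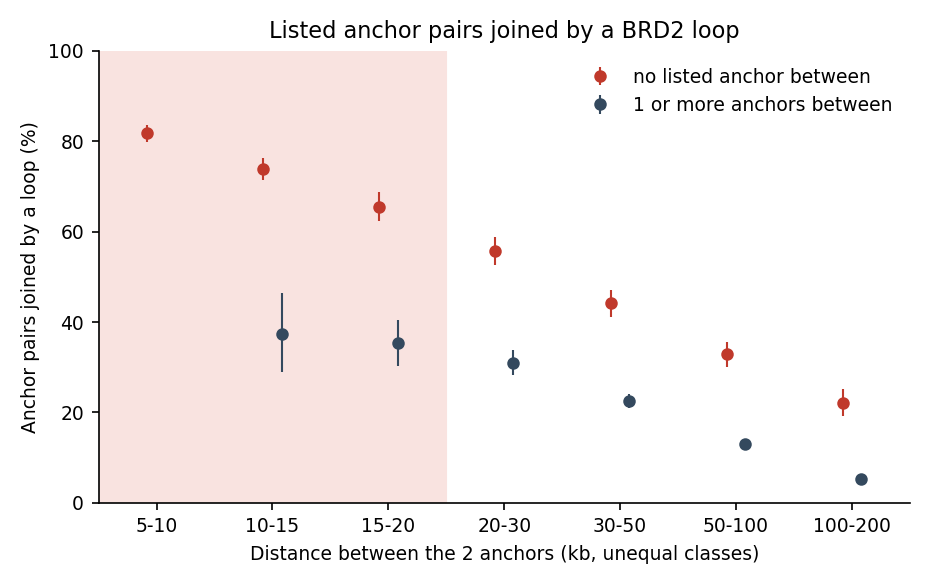
Percent of listed anchor pairs joined by a loop, with exact 95% intervals, by the distance between the anchors in kb, for neighbouring anchors (red) and pairs with other anchors between them (dark). The shaded classes hold the short loops, where 81.8% to 65.5% of neighbouring pairs were joined.

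Short loops rarely passed over an anchor, and few of all listed anchor pairs at this distance had an anchor between them. Of 3047, 2871, or 94.2% (93.3 to 95.0%), joined neighbours and 176 passed over 1 anchor. Of all 4297 listed pairs 5 to 20 kb apart, joined or not, 3805 were neighbours. The loops that passed over an anchor were longer, with a median of 16.8 kb against 10.3 kb for those between neighbours. At least 3000 was scored by 48.3% of them (40.7 to 55.9%) and by 55.4% of those between neighbours (53.5 to 57.2%), so the intervals overlapped. The anchor passed over was itself joined to both ends in 86 of the 176 cases, to 1 end in 85 and to neither in 5.

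Some pairs of short loops that met at a common middle anchor were closed by a loop between their outer anchors. Up to a span of 30 kb, this was about as frequent as a loop between any listed anchors with another between them. At spans of 30 to 40 kb it was more frequent than in the wider class of anchor pairs 30 to 50 kb apart. There were 745 such chains of 2 short loops, and 271, or 36.4% (32.9 to 39.9%), were closed. Of all listed anchor pairs with another anchor between them, 37.3% were joined at 10 to 15 kb, 35.2% at 15 to 20 kb and 31.0% at 20 to 30 kb. The 90 chains spanning 30 to 40 kb were closed in 44.4% (34.0 to 55.3%). In the wider class of 30 to 50 kb, 22.5% of all such anchor pairs were joined (20.9 to 24.1%). This class also holds longer distances, at which fewer pairs were joined, so these shares are not at like distances. Among 946 chains of 2 loops of 20 to 100 kb, 18.7% were closed (16.3 to 21.3%), which leaves a difference of 17.7 points (Newcombe interval 13.4 to 21.9). Those chains cover longer distances, at which fewer of all such anchor pairs were joined, with 22.5% at 30 to 50 kb and 13.02% at 50 to 100 kb. With a minimum score of 3000 the share was 28.5% for short loops and 21.1% for loops of 20 to 100 kb, and the difference was 7.47 points (0.147 to 14.6). Closure went with score. When the weaker arm of a chain had a score of 2000, 29.1% of 447 chains were closed (24.9 to 33.5%). With 3000 it was 39.6% of 144, with 5000 or 6000 50.7% of 67, and with 7000 or more 87.0% of 23 (66.4 to 97.2%). Several of these 23 chains lie at the same places and share loops, so they are fewer independent cases than their number. The span of the chain showed no such order, with 41.4% closed at 10 to 15 kb, 33.0% at 15 to 20 kb and 44.4% at 30 to 40 kb.

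The closing loop was a short loop itself in 86 cases and longer than 20 kb in 185. Its mean score was 4107 ± 3481, against 5415 ± 4016 for the mean of the 2 arms (SD over 271 chains). It scored below both arms in 79 chains, above both in 39 and at or between their scores in 153. In open chains the mean of the arms was 3746. A closed chain that shares a loop with another is counted in each, so these chains are not independent of each other.

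Most short loops lay within a longer one. Of 3047, 1844, or 60.5% (58.8 to 62.3%), lay inside at least 1 loop of over 20 kb and up to 1 Mb. The median number of enclosing loops was 2 and the highest 14. Only 249 of the 1844 were enclosed without sharing an anchor with any longer loop. With a minimum score of 3000 for all loops, 34.6% were enclosed. Short loops inside a longer loop had a score of 3000 or more in 58.7% (56.4 to 61.0%) and the others in 49.2% (46.3 to 52.1%). A longer loop left from both ends of 673 short loops, from 1 end of 1253 and from neither of 1121. With each end of each short loop counted separately, longer loops at the ends numbered 4506. Of these, 2433 ran over the short loop and 2073, or 46.0%, ran away from it, so that longer loops left short ones nearly as often outward as across.

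Strong and weak short loops differed in their surroundings. Of the 101 with a score of 10000 or more, 82.2% lay inside a longer loop, 62.4% had another anchor joined to both ends and 9 had no other loop at either anchor. Of the 1372 with a score of 2000, 55.5% lay inside a longer loop, 17.7% had another anchor joined to both ends and 419, or 30.5%, had no other loop. The median length was 10.7 kb in the 101 strong loops and 11.2 kb in those of score 2000. The 101 strong loops lay on 20 chromosomes.

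Short loops were also often alone. No other loop of up to 1 Mb was listed at either anchor of 757, or 24.8% of short loops (23.3 to 26.4%), against 16.6% of loops of 20 to 100 kb (15.4 to 18.0%). With a minimum score of 3000, which leaves fewer loops that can share an anchor, the share was 43.6% of short loops and 27.1% of loops of 20 to 100 kb. The mean score of these 757 was 2937 ± 1695, against 3809 ± 3052 for the other short loops. Another anchor was joined to both ends in 25.3% of short loops (23.8 to 26.9%) and in 31.3% of loops of 20 to 100 kb (29.7 to 32.9%). Taken alone, short loops linked their anchors into 2226 groups, of which 1711, or 76.9%, were 1 loop, 327 had 2 loops, 122 had 3 and 66 had 4 or more, up to 10. When all loops up to 1 Mb were used, 2042 short loops, or 67.0%, were in groups that also held longer loops, and groups of short loops only never had more than 4 loops.

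Runs in which each short loop started at the anchor where the last one ended reached 5 or more loops in 8 groups. The longest had 8 loops and covered 89.7 kb on chromosome 1, from 88339145 to 88428884. Its loops had scores of 3000, 3000, 4000, 10000, 42000, 6000, 5000 and 6000 from left to right, or 79000 in sum over the whole run. The loop of score 42000 alone carried more than all others of the run together. Of the 36 possible pairs among its 9 anchors, 23 were joined, 9 by short loops and 14 by longer ones. The next run had 7 loops over 82.4 kb on chromosome 17, from 71183761 to 71266163, with scores of 5000, 9000, 12000, 2000, 2000, 6000 and 2000. The strongest loops of that run lay in its left part, and 17 of 28 pairs were joined. The run on chromosome 11 had 6 loops over 71.8 kb, from 77689800 to 77761641, with scores of 3000, 7000, 8000, 7000, 2000 and 2000, and 13 of 21 pairs were joined. The joined pairs were 63.9% of those possible on chromosome 1, 60.7% on chromosome 17 and 61.9% on chromosome 11. The 8, 7 and 6 loops that make up the runs are among these joined pairs, so the choice of the runs raises these shares.

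**Figure D5:**
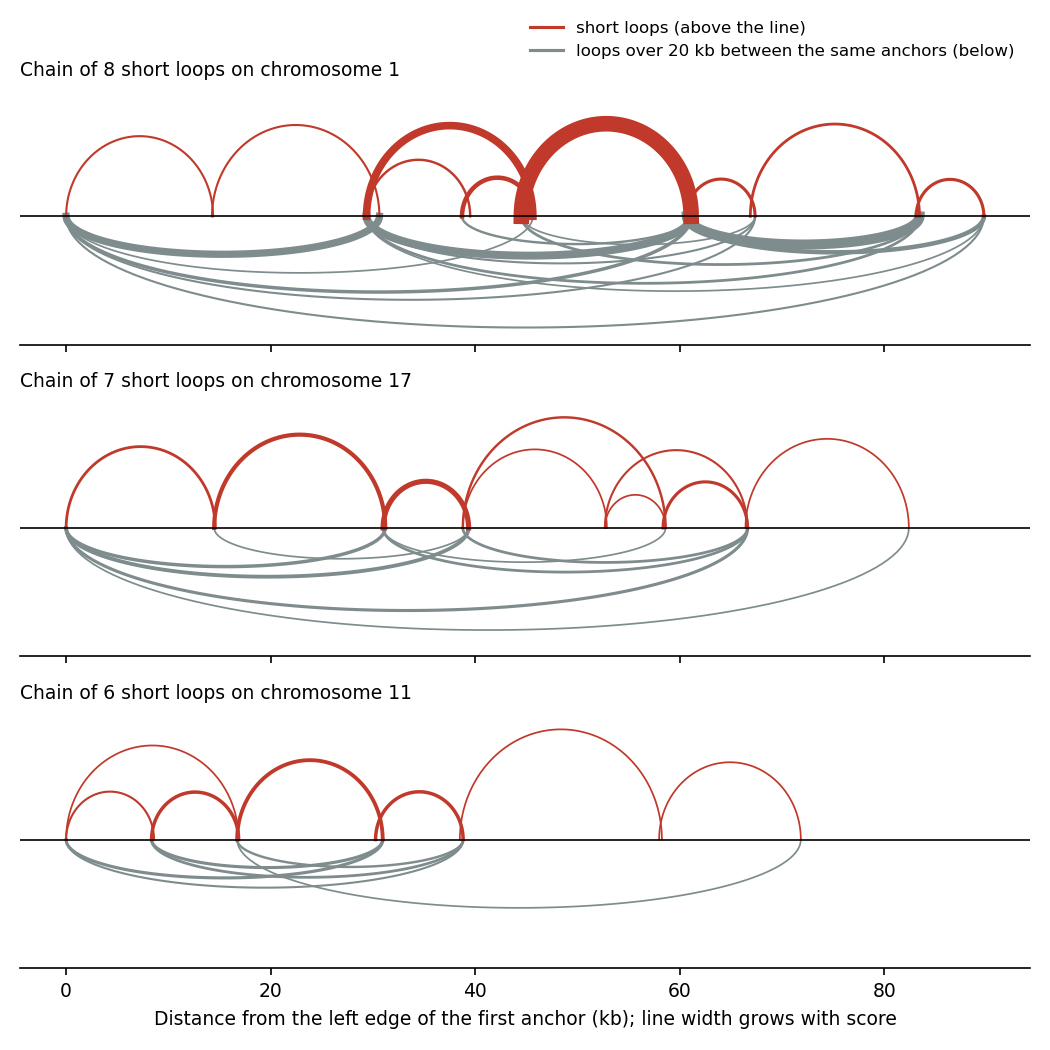
Short loops (red arcs, above the line) and loops over 20 kb (grey arcs, below) between the anchors of the 3 longest runs of short loops, against distance from the left edge of the first anchor in kb. Line width grows with score, and the widest arc is the loop of score 42000 on chromosome 1.

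The share of short loops was similar on all chromosomes. It ranged from 35.4% of 206 loops on chromosome 18 (28.9 to 42.4%) to 44.9% of 236 on chromosome 14 (38.5 to 51.5%), and 0 of the 20 intervals left out the 39.4% of the whole list. Chromosome 11 held the most short loops, 341, and chromosome X the fewest, 27 of its 65 loops. The median length of short loops lay between 9.997 and 11.5 kb on each chromosome. On 20 of 20 chromosomes the share that scored at least 3000 was larger in short loops than in loops of 20 to 100 kb. The difference was smallest on chromosome 3, at 48.1% in short loops and 45.2% in loops of 20 to 100 kb, and largest on chromosome X, at 30.6 points, where it rests on 27 and 24 loops.

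The surroundings of short loops differed between chromosomes. On chromosome 17, 79.0% of 195 short loops lay inside a longer loop (72.6 to 84.5%) and 14.9% had no other loop at either anchor (10.2 to 20.7%). On chromosome 16, 45.3% of 75 lay inside a longer loop (33.8 to 57.3%), and on chromosome X 37.0% of 27 (19.4 to 57.6%). On X, 15 of the 27 short loops had no other loop at either anchor. Chromosome 11, with 814 loops against 550 on chromosome 17, had 64.8% of its short loops inside a longer one (59.5 to 69.9%). Whether these shares follow the number of listed loops was not tested.

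Short loops lay in 938 windows of 1 Mb. Of these, 356 held 1 short loop, while 224 with 5 or more held 1708 short loops, or 56.1% of them, and 52 held 10 or more. The fullest windows had 18 short loops each, from 80 to 81 Mb on chromosome 10 (summed score 55000), from 115 to 116 Mb on chromosome 11 (52000) and from 148 to 149 Mb on chromosome 7 (52000). The window from 87 to 88 Mb on chromosome 8 had 15 short loops but a summed score of 81000. These windows were chosen after their values were seen. They held 38, 31, 41 and 28 loops of all lengths in the order named, so that between 43.9% and 58.1% of their loops were short.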

How the data were processed

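BRD2 ChIA-PET was measured in 2 replicates of untreated V6.5 cells. Per the submitters' processing notes, cutadapt, Bowtie and mm9 were used. Per the file header, the authors merged the replicates into 1 list of high-confidence interactions with a score each. How interactions were called and filtered, how deep the libraries were and what a score counts is not given in the sources used here. Positions are as listed, and no columns of other samples were used.

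The first start and end columns were read as outer edges, an inference, since the second pair repeats the start. Edges were paired into an anchor where a right edge followed a left one by under 5000 bp. Chains, enclosure and joined pairs were counted over loops of up to 1 Mb. Distances between anchors used the outer edge where known and the inner edge otherwise. Shares have Clopper-Pearson and differences Newcombe 95% intervals. Coefficients carry no p. Anchors, partner numbers, short loops, chains, closed chains and the count of high scores were checked on 1 simulated list. The other measures were not. The software was scipy 1.17.1, pandas 2.3.3, numpy 2.4.6 and matplotlib 3.10.9 under Python 3.11.15.

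Members, limits and measures were chosen with earlier results of these data known. Named were the 10 short loops of highest score, the 5 anchors with the most short partners (ties by summed score), the 3 longest runs of short loops from separate groups, the 3 shortest loops and those next to 20000 bp. Alternatives were a minimum score, other limits of length, score and edge pairing, 1 loop per connected group, and single chromosomes left out. Genes and sequences at anchors were not analysed here.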

Additional observations from a re-analysis of the deposited data

How the results depend on the processing

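The depth and the spread between replicates are unknown, and 45.03% of short loops sit at the lowest listed score, so a missing loop says nothing. With a minimum score of 3000, short loops were 51.4% of the list, 30.5% of their anchors had 2 or more partners, 95.7% joined neighbours, 34.6% lay inside a longer loop, 28.5% of chains were closed and 2 chromosome intervals left out the whole-list share. This setting leaves fewer loops that can share an anchor or enclose another. With short loops up to 15000 bp, they were 30.5% of the list, 49.1% of anchors had 2 or more partners, 98.0% joined neighbours and 1 chromosome interval left out the list's share. With a limit of 25000 bp, they were 45.8% of the list, 53.2% scored 3000 or more, 89.9% joined neighbours, 58.5% lay inside a longer loop, 2 chromosome intervals left out the list's share and rho between score and length was -0.11. The share at 5000 or more was 20.4%. With 1 short loop per connected group, 51.0% scored 3000 or more, against 32.7% with 1 loop of 20 to 100 kb per group. The difference in score share, short minus 20 to 100 kb, was 15.8 points with a limit of 15000 bp and 15.5 with 25000 bp. In 91 of 109 recomputed values the result stayed near the value reported, a share within its interval and, with a limit of 15000 bp, the coefficient of score and length at -0.05. Most of these 91 were values without 1 chromosome. Each of those left out at most 341 of the 3047 short loops, so a share could hardly leave its interval. They ranged from 54.5% to 55.4% for the score share and 46.9% to 48.0% for partners. For enclosure the range was 59.3% to 61.0%, and for closed chains 34.8% to 37.6%. The 18 values that moved all came from the other alternatives. Pairing edges within 2500 bp gave the values reported for partners, neighbouring anchors and closed chains, the 3 results it was run for. Without loops over 5 Mb, short loops were 40.3% of the list, and with enclosing loops up to 500 kb, 59.8% were enclosed. Leaving out a chromosome, and the contrasts with longer loops at a minimum score, were chosen after seeing the data. Leaving out a replicate was not run, as replicates were merged before deposit. No paired analysis was possible because all samples form 1 group.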
